A study of Mus musculus with 15 samples.

Results

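The protein genes of the mitochondrial ribosome were followed by RNA sequencing in the wild-type mouse line RAW264.7, whose cells resemble macrophages. A gene was included when its symbol began with Mrpl or Mrps and a number and did not end in the pseudogene suffix, which gave 78 of the 25639 genes in the count table, 49 with an Mrpl symbol and 29 with an Mrps symbol. By the structure of the mammalian mitoribosome, 51 of the 78 encode large-subunit proteins, Mrps18a and Mrps30 among them, and 26 encode small-subunit proteins. Mrps36 was kept because of its symbol, although its product is now placed in the 2-oxoglutarate dehydrogenase complex and not in the ribosome. All 78 passed the filter on low counts, with 52 counts as the smallest value of any of them in any library.

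The cells were given LCCL, a peptide with an LCCL core motif, for either 6 h or 24 h at a dose of 1 µg or 10 µg, or were left untreated, and each of the 5 groups had 3 libraries. The labels state the doses as masses without a volume, name the same batch for every library, and give neither a vehicle nor a harvest time for the untreated cells, so that peptide, vehicle and time in culture cannot be told apart in comparisons with untreated cells. Nothing in the labels says that the 3 libraries of a group came from separate cultures, so a p-value speaks only to how these libraries scatter, and that scatter may be technical.

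The mitochondrial ribosome translates the few messenger RNAs of the mitochondrial genome, all of them for membrane subunits of the respiratory chain and ATP synthase. Its ribosomal RNAs come from mitochondrial DNA, whereas every protein is encoded in the nucleus, made in the cytosol and imported. Some proteins descend from bacterial ribosomal proteins and others are found only in mitochondria. Promoters of these genes are known for sites of NRF1 and of the ETS factor GABP, regulators that also act on genes of the respiratory chain.

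Each library held between 19085148 and 22434642 counts, and the tests covered 12401 genes. Markers of other cell types were at or near 0: the fibroblast list summed to at most 0.101 CPM in any library, the epithelial list to 0.0534, the T cell list to 0.335, the B cell list to 0.837 and the neutrophil list to 1.17, with Col1a1, Epcam, Cd3e and other defining genes at 0. The macrophage list summed to 11500 to 16300 CPM, and the dendritic cell list, which includes Itgax, a gene that macrophages express too, to 14.4 to 46.0 CPM. Replicate 1 of the 1 µg 24 h group stood apart from the other 2 libraries of its group, with a chi-square per degree of freedom of 13.3 and 15 against 2.51 to 7.01 for all other pairs of replicates. The numbers of genes that fell and rose at 1 µg 24 h, and the changes of Mrps6, are given with and without it. Means at 1 µg 24 h include it. CPM are counts divided by the scaled library size, and changes are log2 fold changes ± SE. The words rose and fell are kept for genes with p under 0.05 in edgeR's quasi-likelihood test after Benjamini-Hochberg adjustment over all 12401 genes.

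Stretches upstream of 9 of the genes that changed most at 24 h are printed first, because they are where the regulators named above are known to act. Each is the 120 bases before the RefSeq transcription start, 5′ to 3′ on the gene's strand, from assembly GRCm38.p6, which is not the GRCm39 build of the counts. Capitals mark TGCGCA, core letters of the NRF1 site, or CCGGAAG or its reverse complement, the ETS site that GABP reads. Genes that fell come first: Mrpl18 (chr17:12916092-12916211, minus strand), Mrpl12 (chr11:120484517-120484636, plus), Mrpl49 (chr19:6057756-6057875, minus), Mrpl51 (chr6:125192080-125192199, plus), Mrpl34 (chr8:71464806-71464925, plus), Mrps6 (chr16:92058216-92058335, plus) and Mrps7 (chr11:115604020-115604139, plus). Mrpl24 (chr3:87919424-87919543, plus) and Mrpl33 (chr5:31613831-31613950, plus) rose. No stretch is shown for Mrpl19 and Mrps34.
Mrpl18: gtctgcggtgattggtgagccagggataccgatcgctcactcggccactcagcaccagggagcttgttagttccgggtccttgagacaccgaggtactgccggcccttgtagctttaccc
Mrpl12: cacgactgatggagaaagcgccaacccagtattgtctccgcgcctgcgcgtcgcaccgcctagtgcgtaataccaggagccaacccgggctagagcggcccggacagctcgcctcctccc
Mrpl49: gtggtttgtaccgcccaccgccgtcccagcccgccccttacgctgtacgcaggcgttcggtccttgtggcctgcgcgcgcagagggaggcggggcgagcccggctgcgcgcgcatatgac
Mrpl51: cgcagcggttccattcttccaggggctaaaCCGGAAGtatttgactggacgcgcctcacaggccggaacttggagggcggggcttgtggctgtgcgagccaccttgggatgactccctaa
Mrpl34: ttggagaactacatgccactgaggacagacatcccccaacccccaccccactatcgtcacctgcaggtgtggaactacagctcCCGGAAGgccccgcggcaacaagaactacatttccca
Mrps6: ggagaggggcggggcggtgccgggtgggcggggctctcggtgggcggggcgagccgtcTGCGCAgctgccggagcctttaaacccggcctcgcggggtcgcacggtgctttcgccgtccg
Mrps7: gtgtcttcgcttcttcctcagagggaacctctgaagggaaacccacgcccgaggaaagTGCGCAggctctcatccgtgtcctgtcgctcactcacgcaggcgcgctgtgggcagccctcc
Mrpl24: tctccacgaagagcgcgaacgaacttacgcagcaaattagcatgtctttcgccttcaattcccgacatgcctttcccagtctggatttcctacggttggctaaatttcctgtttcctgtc
Mrpl33: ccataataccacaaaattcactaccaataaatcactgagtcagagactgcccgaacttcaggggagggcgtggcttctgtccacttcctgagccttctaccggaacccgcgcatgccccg
Mrpl51 held the ETS letters 90 bases before its start and Mrpl34 held them 37 bases before, while Mrps6 and Mrps7 each held the NRF1 letters 62 bases before. Mrpl18, Mrpl12 and Mrpl49, the genes with the deepest falls, held neither in these 120 bases, and nor did the rising Mrpl24 and Mrpl33.

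Over the longer window of 250 bases before to 50 bases after the start, 69 of the 78 genes had a promoter in the RefSeq table. TGCGCA was found on either strand in 21 of the 69 (30.4%), against 16.1% of 9623 tested genes and 8.79% of all 27025 genes with a promoter. CCGGAAG was found in 26 (37.7%), against 20.6% and 9.93%. ATGGCGG, the core letters of YY1, was found in 13 (18.8%), against 9.69% and 4.69%, and CACGTG, the E-box of Myc and Max, in 5 (7.25%), against 11.6% and 8.09%. Among the 46 of these genes that fell at 10 µg and 24 h, 23.9% held the NRF1 letters and 34.8% the ETS letters, while both stood at 43.5% among the other 23. The YY1 letters were in 10 of the 46 that fell and 3 of the other 23, and the E-box was in 3 of the 46 and 2 of the 23. None of these differences was tested. A match is a run of letters and not a measured binding site.

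In untreated cells the 78 genes had a median level of 33.1 CPM and, per length of the principal transcript, of 24.9 CPM per kb. The highest level per length was that of Mrps6, a small-subunit protein of bacterial type, at 158 ± 9.79 CPM per kb (SD, n = 3 here and for all levels). Mrpl12, the stalk protein that recruits translation factors, followed at 83.8 ± 3.32 CPM per kb. Mrpl33 at 77.1 ± 0.665 and Mrpl24 at 76.0 ± 2.29 CPM per kb differed by less than the spread between libraries, and Mrpl20 stood at 71.8 ± 4.41 CPM per kb. The lowest were Mrpl48 at 3.48 ± 0.0857, Mrps35 at 4.36 ± 0.219, Mrps5 at 6.39 ± 0.489, Mrps36 at 6.45 ± 2.48 and Mrpl58 at 6.78 ± 0.412 CPM per kb. Mrps5, Mrps36 and Mrpl58, a peptidyl-tRNA hydrolase that has become part of the large subunit, differed by less than the spread of Mrps36. Genes whose products sit in 1 particle thus spanned levels from 3.48 to 158 CPM per kb. These levels depend on the annotated length, which was 4.28 kb for Mrpl48, 4.16 kb for Mrps35 and 4.48 kb for Mrps5. Before division by length Mrps5 stood at 28.7 CPM, near the median. With the length of all annotated exons instead, the order of the genes was similar (Spearman correlation 0.96).

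Summed over all 78 genes, the level was 3100 ± 28.9 CPM at 1 µg 6 h, 3080 ± 55.7 CPM at 10 µg 6 h, 2590 ± 25.2 CPM at 1 µg 24 h, 2530 ± 80.2 CPM at 10 µg 24 h and 3160 ± 70.0 CPM in untreated cells. Both 24 h groups, with 2450 CPM as their lowest library and 2610 CPM as their highest, lay below every untreated library, the lowest of which had 3110 CPM. The large-subunit genes summed to 1760 ± 70.0 CPM at 10 µg 24 h and 1770 ± 41.6 CPM at 1 µg 24 h, against 2130 ± 47.3 CPM in untreated cells. The small-subunit genes summed to 766 ± 16.4 CPM at 10 µg 24 h and 819 ± 19.1 CPM at 1 µg 24 h, against 1030 ± 26.5 CPM in untreated cells. In bulk RNA, fewer cells that express a gene and less of its RNA in each cell cannot be told apart.

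**Figure D1:**
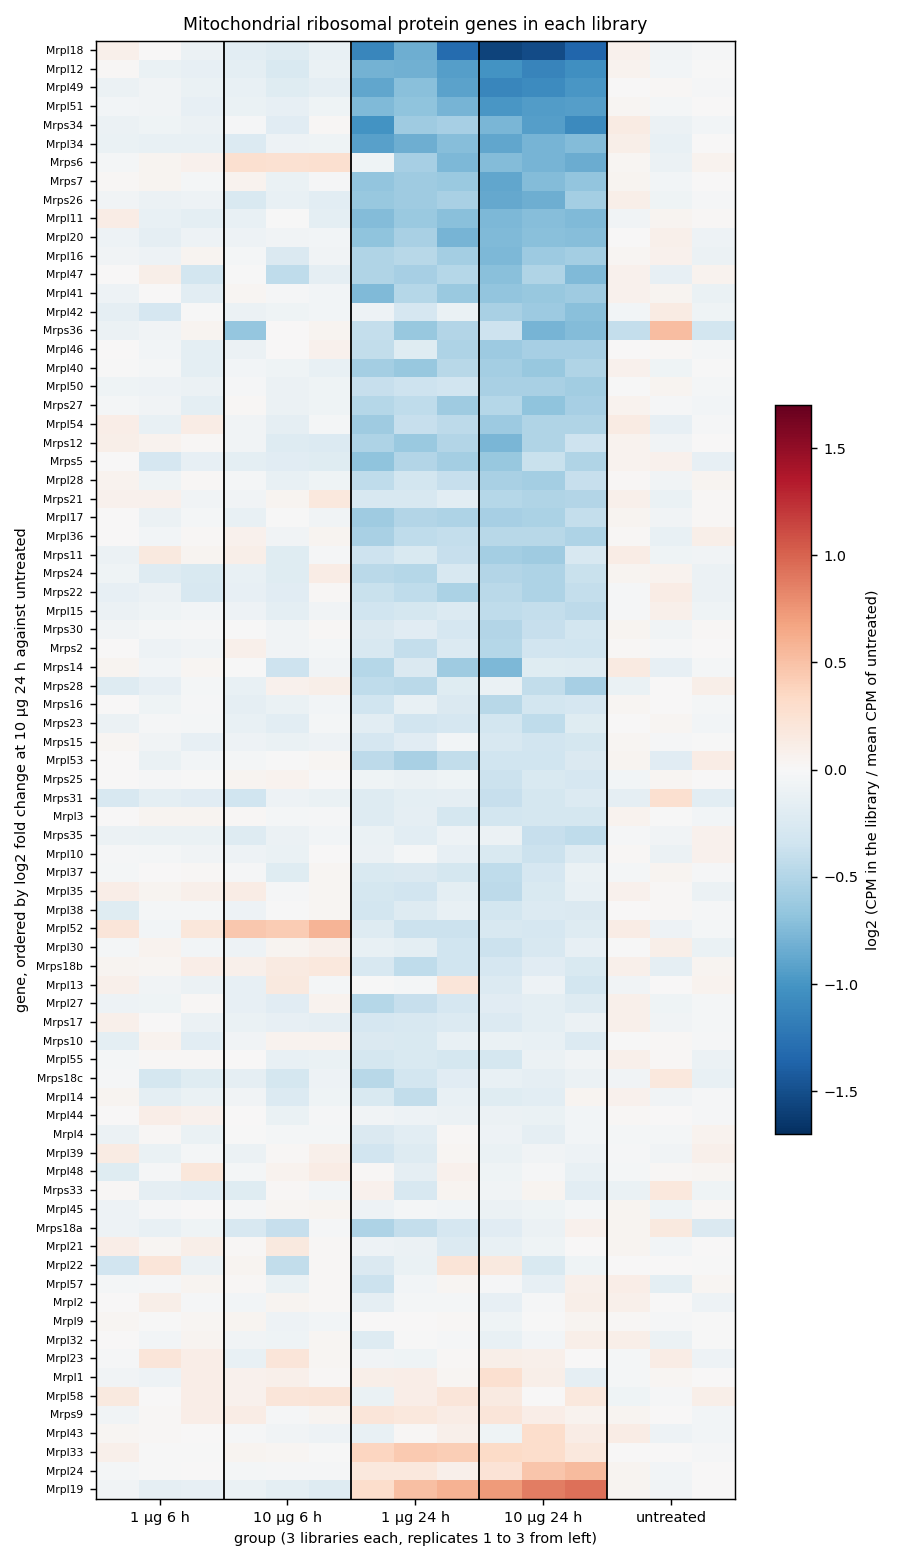
Each row is 1 of the 78 genes and each column 1 library, with colour for log2 of the library's CPM over the mean CPM of the untreated libraries (blue lower, red higher). The columns of both 24 h groups are blue for most rows, with Mrpl18 at the top and Mrpl19, Mrpl24 and Mrpl33 red at the bottom, while most cells of the 6 h columns are pale, with Mrpl52 and Mrps6 red at 10 µg.

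At 10 µg and 24 h the genes of the mitochondrial ribosome fell as a broad group and a few rose. Against untreated cells 53 of 78 fell, against 34.9% of all genes tested that fell, and 3 rose, against 35.4%. Their median log2 fold change was -0.30, while that of all genes was 0.01. A fall of at least 0.5 was seen in 25 of them and of more than 1 in 3, Mrpl18, Mrpl12 and Mrpl49. At 1 µg and 24 h 52 fell, against 31.0% of all genes, and 4 rose, against 30.8%, with a median of -0.28 beside 0.01 for all genes, and without replicate 1 of that group 48 fell and 3 rose. Both comparisons use the same untreated libraries, so their agreement is not independent. The cell cycle list fell in the same groups, 11 of 11 genes at each dose, with summed levels of 1380 to 1670 CPM at 10 µg 24 h and 2180 to 2590 CPM at 1 µg 24 h, against 4020 to 4090 CPM in untreated cells. Of the 10 genes of the macrophage list, 6 rose and 3 fell at 10 µg 24 h, with a median of 0.29, and 4 rose and 2 fell at 1 µg 24 h, with a median of 0.05. Their summed level, in which the most abundant genes weigh most, was 11500 to 12600 CPM at 10 µg 24 h, against 15100 to 15600 CPM in untreated cells. At 1 µg 24 h it was 16300 CPM in replicate 1 and 14000 and 13800 CPM in replicates 2 and 3, below every untreated library. The dendritic cell list summed to 41.9 to 46.0 CPM at 10 µg 24 h and 23.8 to 26.0 CPM at 1 µg 24 h, against 15.9 to 17.3 CPM in untreated cells. The part of these lists in the result was not tested.

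Mrpl18 encodes a large-subunit protein of the central protuberance, the region that holds 5S rRNA in bacterial ribosomes. Its levels were 24.7, 25.6 and 28.9 CPM at 10 µg 24 h and 34.1, 41.4 and 29.8 CPM at 1 µg 24 h, against 77.7, 70.9 and 72.4 CPM in untreated cells. All 6 treated libraries lay below the untreated ones, and at 24 h the 2 doses did not overlap. It fell by 1.48 ± 0.09 at 10 µg (adjusted p = 1.46e-11) and by 1.07 ± 0.09 at 1 µg (adjusted p = 2.75e-09), and no other of the 78 genes fell further at either dose. Tcp1, a chaperonin subunit gene on the opposite strand with 17 bases of shared exon, also fell, with changes of -0.66 ± 0.05 and -0.49 ± 0.05.

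Mrpl12 had 54.6, 50.4 and 53.6 CPM at 10 µg 24 h and 63.3, 62.7 and 57.7 CPM at 1 µg 24 h, against 115, 107 and 109 CPM in untreated cells. The groups did not overlap, and the changes were -1.06 ± 0.06 (adjusted p = 1.68e-14) and -0.85 ± 0.06 (adjusted p = 3.12e-12). Mrpl49, a mitochondria-specific protein, had 24.9, 25.6 and 27.0 CPM at 10 µg 24 h and 29.0, 32.7 and 28.5 CPM at 1 µg 24 h, against 53.9, 54.6 and 52.8 CPM in untreated cells. Its changes were -1.06 ± 0.06 (adjusted p = 5.76e-14) and -0.84 ± 0.06 (adjusted p = 1.17e-11). Mrpl51, also mitochondria-specific, stood at 36.0 ± 0.573 CPM at 10 µg 24 h and 41.8 ± 1.41 CPM at 1 µg 24 h, against 69.8 ± 1.66 CPM in untreated cells, with changes of -0.96 ± 0.05 and -0.74 ± 0.05. In untreated cells each of these 3 genes varied by only a few per cent between libraries, so that the falls were larger than the spread.

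More large-subunit genes of bacterial type were among those that fell most. Mrpl34 stood at 18.5 ± 0.953 CPM at 10 µg 24 h and 18.2 ± 1.27 CPM at 1 µg 24 h, against 32.2 ± 2.47 CPM in untreated cells, with changes of -0.80 ± 0.08 and -0.82 ± 0.08. Mrpl11, at the base of the stalk, stood at 23.9 ± 0.272 CPM and 24.8 ± 1.01 CPM in the 10 µg and 1 µg groups at 24 h, against 40.1 ± 1.57 CPM in untreated cells, with changes of -0.75 ± 0.07 and -0.69 ± 0.07. Mrpl20 stood at 33.1 ± 0.582 CPM and 34.5 ± 2.92 CPM at these doses, against 54.9 ± 3.37 CPM in untreated cells, with changes of -0.73 ± 0.06 and -0.67 ± 0.06. Unlike Mrpl18, none of these passed the test between the doses at 24 h.

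Of the small-subunit genes, 22 of 26 fell at 10 µg 24 h and 21 of 26 at 1 µg 24 h, with medians of -0.36 and -0.33. Of all genes 34.9% and 31.0% fell in these comparisons. Of the large-subunit genes, 30 of 51 fell at each dose, with a median of -0.26 at both, and the difference between the subunits was not tested. Mrps34, a mitochondria-specific small-subunit protein needed for the stability of the subunit, had 21.5, 19.2 and 17.3 CPM at 10 µg 24 h and 18.2, 24.1 and 24.8 CPM at 1 µg 24 h, against 40.5, 34.2 and 35.6 CPM in untreated cells. It fell by 0.93 ± 0.10 (adjusted p = 4.84e-08) and by 0.72 ± 0.10 (adjusted p = 2.25e-06). Mrps7, a protein of the head of the small subunit, stood at 37.3 ± 2.77 CPM at 10 µg 24 h and 40.7 ± 1.02 CPM at 1 µg 24 h, against 63.2 ± 2.15 CPM in untreated cells, with changes of -0.76 ± 0.06 and -0.63 ± 0.06. Mrps12, whose bacterial relative controls the accuracy of decoding, stood at 10.9 ± 1.63 CPM and 10.8 ± 0.52 CPM at these doses, against 15.8 ± 0.697 CPM in untreated cells, with changes of -0.53 ± 0.10 and -0.54 ± 0.10.

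Mrps6 varied widely between the libraries of the 1 µg 24 h group. It had 80.5, 77.6 and 74.8 CPM at 10 µg 24 h and 127, 90.7 and 78.9 CPM at 1 µg 24 h, against 137, 125 and 140 CPM in untreated cells. The 10 µg libraries were all low, whereas replicate 1 of the 1 µg 24 h group lay among the untreated values. The change was -0.79 ± 0.13 at 10 µg (adjusted p = 0.000246) and -0.43 ± 0.13 at 1 µg (adjusted p = 0.0135). The change at 1 µg was -0.66 without replicate 1 (adjusted p = 5.49e-11) and -0.38 without replicate 2 (adjusted p = 0.0501). Slc5a3, a myo-inositol transporter gene that shares exon bases with Mrps6 on the same strand, stood at 20.5 ± 4.36 CPM at 10 µg 24 h and 62.2 ± 43.3 CPM at 1 µg 24 h, against 55.1 ± 5.12 CPM in untreated cells, and reads in the 159 shared bases cannot be told apart.

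**Figure D2:**
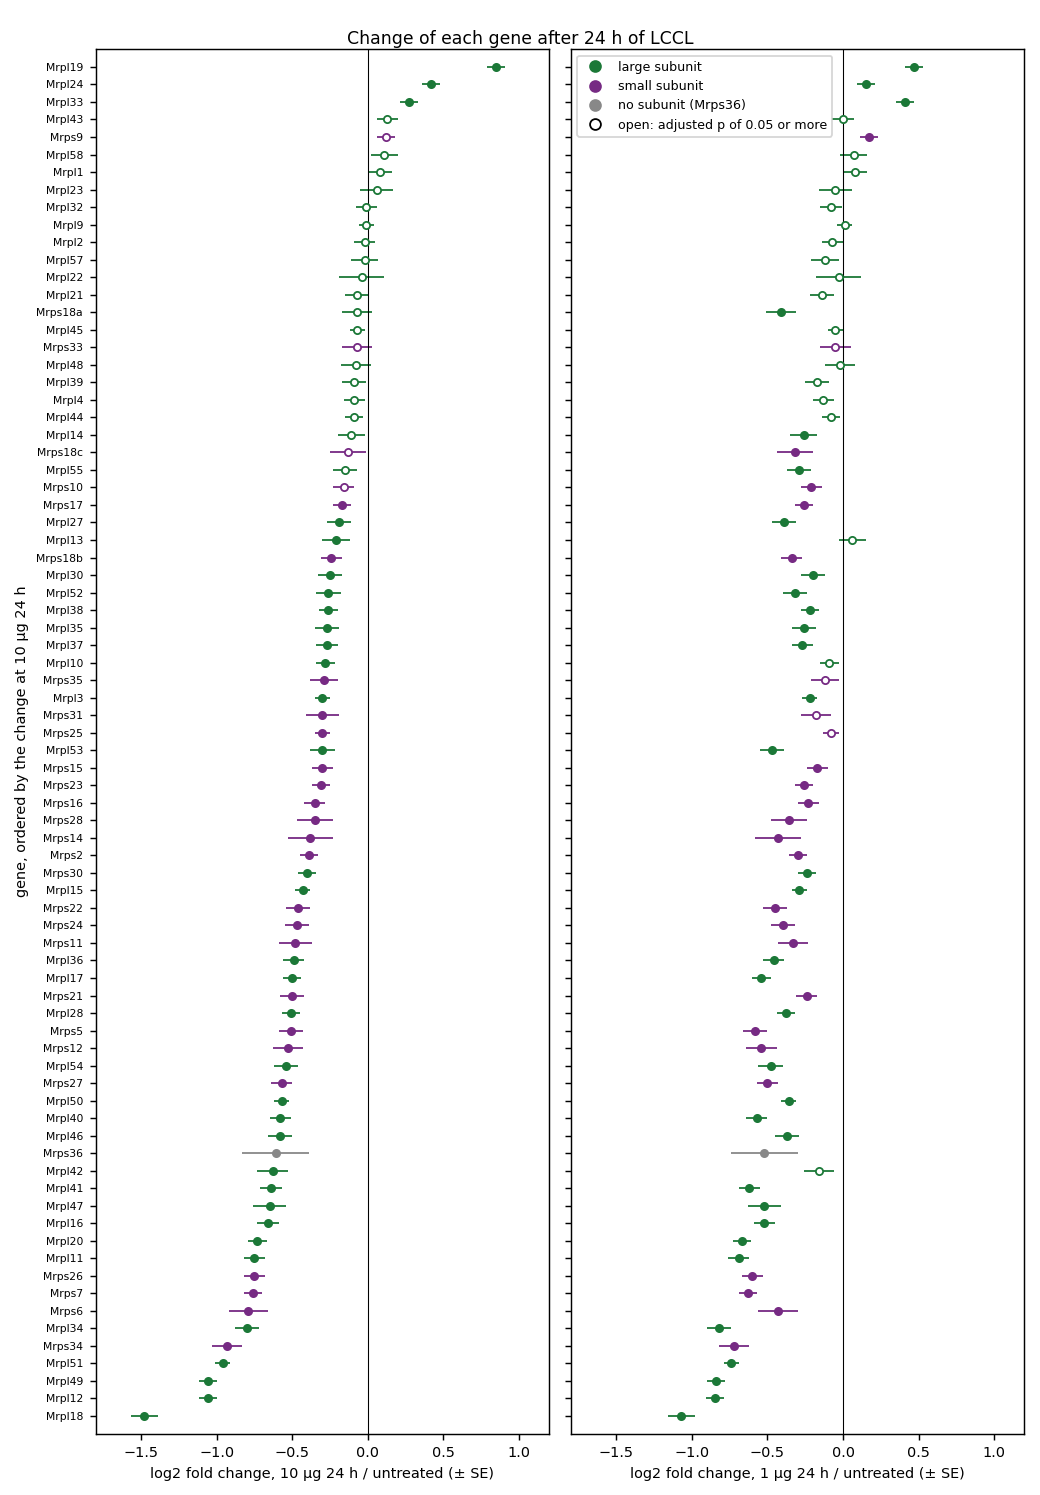
Log2 fold change ± SE of each of the 78 genes at 10 µg 24 h (left) and 1 µg 24 h (right) against untreated cells, with green for the large and purple for the small subunit and open points for an adjusted p of 0.05 or more. The points left of 0 run to -1.48 for Mrpl18 at 10 µg, and the filled points right of 0 are Mrpl19, Mrpl24 and Mrpl33 in the left panel, joined by Mrps9 in the right panel.

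Falls were seen in both classes of the unified nomenclature, bacterial type and mitochondria-specific, and the difference between these classes was not tested. Mrps18a and Mrps18b count as mitochondria-specific by these names, although they are homologs of bacterial S18. Of 45 genes of bacterial type, 30 fell at 10 µg 24 h and 31 at 1 µg 24 h, with medians of -0.30 and -0.26. Of 32 mitochondria-specific genes, 22 and 20 fell, with medians of -0.30 and -0.28. Of all genes 34.9% and 31.0% fell in these comparisons. The genes that rose at 24 h against untreated cells, 3 at 10 µg and 4 at 1 µg, were all of bacterial type.

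Mrpl19, a protein at the face between the subunits in bacterial ribosomes, moved against the group. It had 116, 129 and 135 CPM at 10 µg 24 h and 86.8, 100 and 106 CPM at 1 µg 24 h, against 72.8, 67.6 and 70.8 CPM in untreated cells. Every 24 h library lay above every untreated library, and the 2 doses did not overlap. It rose by 0.85 ± 0.06 at 10 µg (adjusted p = 1.43e-11) and by 0.47 ± 0.06 at 1 µg (adjusted p = 8.01e-07). Gcfc2, a gene on the opposite strand whose annotated exons overlap 1962 bases of Mrpl19, stood at 13.8 ± 1.45 CPM at 10 µg 24 h, against 15.4 ± 1.23 CPM in untreated cells, a change of -0.15 ± 0.09 that did not pass.

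Mrpl24, whose bacterial relative starts the assembly of the large subunit, had 110, 129 and 136 CPM at 10 µg 24 h and 106, 106 and 99.5 CPM at 1 µg 24 h, against 96.2, 90.6 and 93.3 CPM in untreated cells. It rose by 0.42 ± 0.06 at 10 µg (adjusted p = 3.77e-07) and by 0.15 ± 0.06 at 1 µg (adjusted p = 0.0239), and the call at 1 µg was lost without any 1 of 4 libraries, with adjusted p of up to 0.0834. Rrnad1, on the opposite strand with 594 bases of exon overlap, rose too, by 0.29 ± 0.06 and 0.28 ± 0.06, to 49.5 ± 4.04 CPM at 10 µg and 49.2 ± 1.99 CPM at 1 µg, against 40.6 ± 0.946 CPM in untreated cells. The strand setting of the counting is not given in the sources used here, so reads of overlapping genes cannot be told apart.

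Mrpl33, a large-subunit protein of bacterial type, had 46.2, 45.2 and 41.6 CPM at 10 µg 24 h and 47.5, 50.4 and 49.1 CPM at 1 µg 24 h, against 37.1, 37.0 and 36.5 CPM in untreated cells. It rose at both doses, by 0.27 ± 0.06 (adjusted p = 0.000217) and 0.41 ± 0.06 (adjusted p = 8.31e-07). Mrps9 had 54.9, 51.6 and 49.8 CPM at 10 µg 24 h and 55.1, 54.3 and 52.1 CPM at 1 µg 24 h, against 49.3, 48.0 and 46.3 CPM in untreated cells. It passed at 1 µg, where it rose by 0.17 ± 0.06 (adjusted p = 0.0139, and 0.0603 without untreated replicate 3), and not at 10 µg, where the change was 0.12 (adjusted p = 0.0663).

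The 3 homologs of bacterial S18 were Mrps18a, Mrps18b and Mrps18c. Mrps18a, which sits in the large subunit, stood at 27.2 ± 2.54 CPM at 10 µg 24 h and 21.6 ± 1.69 CPM at 1 µg 24 h, against 28.5 ± 4.07 CPM in untreated cells, and fell at 1 µg (-0.41 ± 0.10, adjusted p = 0.00162) while the change at 10 µg was -0.07 ± 0.10. Mrps18b, classed as mitochondria-specific by its unified name only, fell at both doses, by 0.24 ± 0.07 at 10 µg and 0.34 ± 0.07 at 1 µg. Mrps18c, of bacterial type, fell at 1 µg by 0.32 ± 0.12 (adjusted p = 0.0259, up to 0.166 in the alternatives) and gave -0.13 ± 0.12 at 10 µg.

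Mrps28 fell by 0.35 ± 0.12 at 10 µg 24 h and by 0.36 ± 0.12 at 1 µg 24 h, with adjusted p of 0.0119 and 0.0111 that reached 0.0822 and 0.06 when single libraries were left out. Mrps36, the gene of the dehydrogenase component, had 3.55, 2.62 and 2.72 CPM at 10 µg 24 h and 3.40, 2.89 and 3.20 CPM at 1 µg 24 h, against 3.42, 6.52 and 3.63 CPM in untreated cells. Its changes of -0.61 ± 0.22 (adjusted p = 0.018) and -0.52 ± 0.22 (adjusted p = 0.044) were no longer called without untreated replicate 2, whose level was the highest, and in the alternatives the adjusted p reached 0.311 and 0.561. Mrpl58 did not pass, at 19 ± 1.25 CPM at 10 µg 24 h and 18.5 ± 2.08 CPM at 1 µg 24 h, against 17.6 ± 1.07 CPM in untreated cells.

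**Figure D3:**
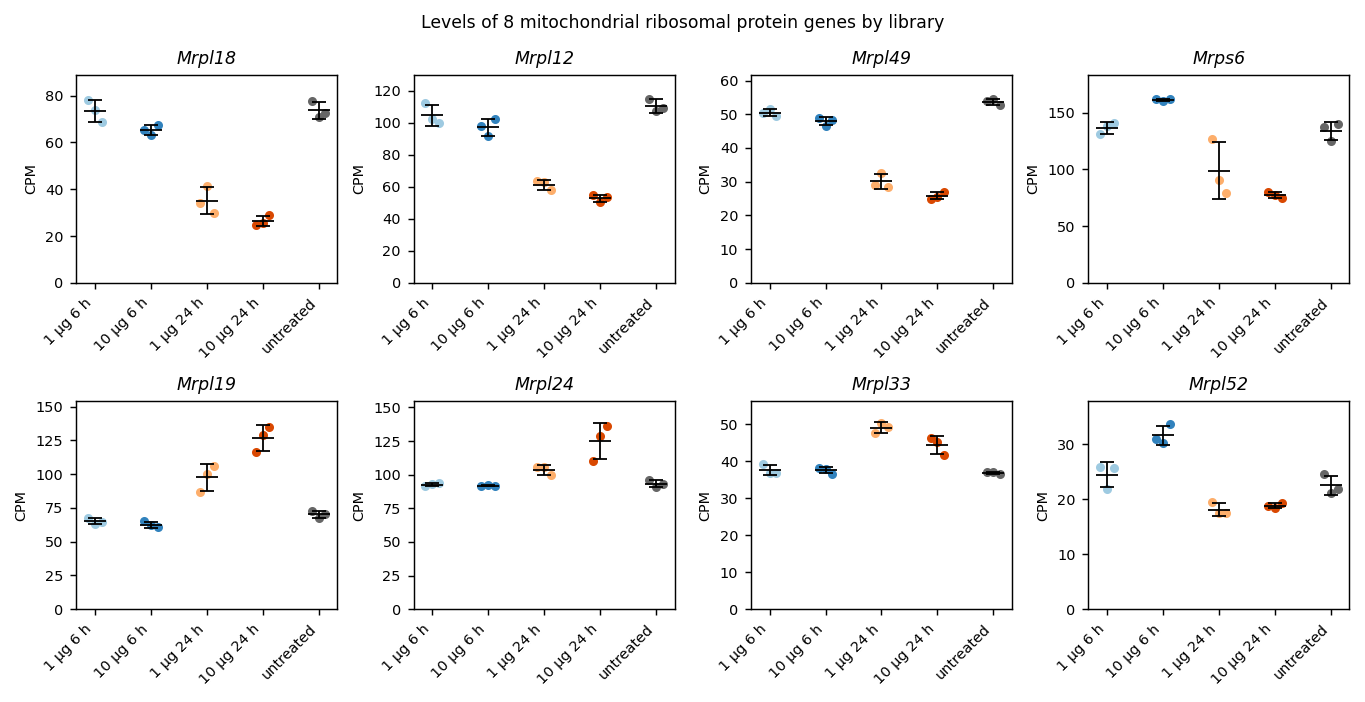
CPM of 8 genes in each library (points), with the group mean and SD (bars), for 1 µg 6 h, 10 µg 6 h, 1 µg 24 h, 10 µg 24 h and untreated cells. Mrpl18, Mrpl12 and Mrpl49 are low in all 24 h libraries, Mrpl19 is high in them, Mrps6 at 1 µg 24 h is spread from 78.9 to 127 CPM, and Mrpl52 is highest at 10 µg 6 h.

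Few genes passed the test at 6 h. At 1 µg 6 h edgeR called 0 of 78 genes, as it called 0% of all genes, with an unadjusted p under 0.05 for 2 of the 78, a median change of -0.04 and all changes between -0.21 and 0.12. DESeq2 and limma-voom also called 0 of the 78. At 10 µg 6 h 1 gene rose, against 4.09% of all genes, and 1 fell, against 1.86%, with a median of -0.06 beside 0.00 for all genes. The riser was Mrpl52, a mitochondria-specific large-subunit protein, which had 31.0, 30.3 and 33.6 CPM at 10 µg 6 h, against 24.5, 21.2 and 21.9 CPM in untreated cells. Its groups did not overlap, and the change was 0.49 ± 0.08 (adjusted p = 0.000273). Mrpl12 had 97.7, 91.7 and 102 CPM at 10 µg 6 h, against 115, 107 and 109 CPM in untreated cells, a fall of 0.18 ± 0.05 (adjusted p = 0.0469) that no longer passed without any 1 of the 6 libraries compared.

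Between the times, 24 h against 6 h, most genes were lower, and both groups compared were treated and have a stated time. The untreated libraries have no stated time, so time with the peptide and time in culture cannot be told apart here either. The 24 h libraries are the same as those compared with untreated cells, so the results are not independent. At 10 µg 48 genes fell, against 35.2% of all genes, and 4 rose, against 34.0%, with a median of -0.29. At 1 µg 47 fell, against 30.5%, and 4 rose, against 30.3%, with a median of -0.26. Mrpl18 changed by -1.30 ± 0.09 at 10 µg (26.4 ± 2.22 CPM at 24 h, against 65.3 ± 1.98 CPM at 6 h) and by -1.06 ± 0.09 at 1 µg (35.1 ± 5.86 CPM at 24 h, against 73.4 ± 4.75 CPM at 6 h). Mrpl19 rose by 1.01 ± 0.06 at 10 µg (126 ± 9.64 CPM at 24 h, against 62.7 ± 2.22 CPM at 6 h) and by 0.58 ± 0.06 at 1 µg (97.6 ± 9.64 CPM at 24 h, against 65.1 ± 2.30 CPM at 6 h).

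Mrps6 fell by 1.06 ± 0.13 between the times at 10 µg, where its 3 libraries at 24 h lay between 74.8 and 80.5 CPM, against 160 and 162 CPM as the lowest and highest at 6 h. Mrpl52, the gene that was higher at 10 µg 6 h, had 18.7, 18.4 and 19.3 CPM at 10 µg 24 h, against the 31.0, 30.3 and 33.6 CPM at 6 h, a fall of 0.75 ± 0.08 (adjusted p = 7.02e-09). Mrpl43 was called higher at 24 h at 10 µg (0.18 ± 0.07, adjusted p = 0.0352), with 44.7, 57.6 and 51.3 CPM at 24 h, against 46.2, 45 and 44.3 CPM at 6 h, and the adjusted p reached 0.32 in the alternatives.

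Between the doses at 24 h, 10 µg against 1 µg, 13 of 78 genes were lower, against 19.3% of all genes, and 3 were higher, against 16.0%, shares near or below those of all genes. Mrpl42, a mitochondria-specific large-subunit protein, had 9.73, 9.28 and 8.64 CPM at 10 µg, against 13.4, 11.7 and 13.1 CPM at 1 µg, and was lower by -0.46 ± 0.10 (adjusted p = 0.000636). Mrpl18 was lower by -0.41 ± 0.09 (adjusted p = 0.00169), Mrpl13 by -0.27 ± 0.09 (adjusted p = 0.0219, and up to 0.126 in the alternatives) and Mrps21 by -0.26 ± 0.08 (adjusted p = 0.01). The 3 that were higher at 10 µg were Mrpl19 (0.38 ± 0.06, adjusted p = 3.62e-05), Mrps18a (0.33 ± 0.10, adjusted p = 0.0136, and up to 0.0834 in the alternatives) and Mrpl24 (0.27 ± 0.06, adjusted p = 0.000512).

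Between the doses at 6 h, 1 gene was higher, against 1.85% of all genes, and 0 were lower, against 0.492%. DESeq2 and limma-voom gave the same counts, and 3 of the 78 had an unadjusted p under 0.05 by edgeR. The gene was Mrpl52, with 31.0, 30.3 and 33.6 CPM at 10 µg, against 25.9, 21.8 and 25.6 CPM at 1 µg (0.37 ± 0.08, adjusted p = 0.00831, and 0.0975 and 0.0809 without 1 µg replicate 2 or 10 µg replicate 3). The interaction, which asks if the difference between the doses was itself different at 24 h and at 6 h, was negative for 4 genes, against 11.0% of all genes, and positive for 3, against 7.58%. It was negative for Mrps6, Mrpl42, Mrps25 and Mrpl50, and positive for Mrps18a, Mrpl19 and Mrpl24.

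The other protein genes of the mitoribosome, whose symbols follow no series, fell with the Mrpl and Mrps genes. All 5 fell at 1 µg 24 h and 4 of 5 at 10 µg 24 h, beside 31.0% and 34.9% of all genes. Gadd45gip1, a large-subunit protein, stood at 20.7 ± 1.46 CPM at 10 µg 24 h and 21.6 ± 4.17 CPM at 1 µg 24 h, against 31.1 ± 3.29 CPM in untreated cells, with changes of -0.59 ± 0.10 and -0.53 ± 0.10. Ptcd3, a small-subunit protein with RNA-binding repeats, stood at 47.6 ± 1.51 CPM and 57.0 ± 2.99 CPM at these doses, against 69.6 ± 1.46 CPM in untreated cells, with changes of -0.55 ± 0.05 and -0.29 ± 0.05. Chchd1 and Aurkaip1 fell at both doses, and Dap3, a GTP-binding small-subunit protein, gave -0.05 at 10 µg and fell by 0.19 ± 0.06 at 1 µg.

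Of 25 factors that assemble the mitoribosome, 7 rose and 8 fell at 10 µg 24 h (28.0% and 32.0%, beside 35.4% and 34.9% of all genes), and 9 rose and 10 fell at 1 µg 24 h (36.0% and 40.0%, beside 30.8% and 31.0%). These shares were near those of all genes. Rcc1l, an RCC1-like protein needed for assembly, stood at 19 ± 0.86 CPM at 10 µg 24 h and 20.4 ± 1.97 CPM at 1 µg 24 h, against 34.0 ± 2.02 CPM in untreated cells, with changes of -0.84 ± 0.07 and -0.73 ± 0.07. Rpusd4, a pseudouridine synthase, changed by -0.59 ± 0.05 and -0.37 ± 0.05. Mettl17, a factor of small-subunit assembly, was higher, at 44.6 ± 5.19 CPM at 10 µg 24 h and 35.7 ± 3.02 CPM at 1 µg 24 h, against 27.2 ± 0.127 CPM in untreated cells, with changes of 0.71 ± 0.08 and 0.39 ± 0.08. At 10 µg 6 h only Nsun4, a methyltransferase of the small subunit, passed among the 25 (0.27 ± 0.08, adjusted p = 0.0393).

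Of 16 mitochondrial translation factors, 4 rose and 4 fell at 10 µg 24 h (25.0% each way, beside 35.4% and 34.9% of all genes). At 1 µg 24 h 3 rose and 6 fell (18.8% and 37.5%, beside 30.8% and 31.0%). Gfm1, the elongation factor that moves the ribosome along the message, changed by -0.61 ± 0.05 and -0.50 ± 0.05, and Tufm, which delivers tRNAs, by -0.40 ± 0.08 and -0.28 ± 0.08. Mtif2, the initiation factor, changed by 0.55 ± 0.06 and 0.47 ± 0.06, and Gfm2, which acts in ribosome recycling, by 0.42 ± 0.05 and 0.24 ± 0.05. Among 20 genes that charge mitochondrial tRNAs, 2 rose and 10 fell at 10 µg 24 h (10% and 50%, beside 35.4% and 34.9% of all genes). At 1 µg 24 h 2 rose and 8 fell (10% and 40%, beside 30.8% and 31.0%). The falls were led by Yars2 for tyrosine at -0.76 ± 0.07 and -0.61 ± 0.07. At 10 µg 6 h Lars2 rose by 0.27 ± 0.05 and Gatc fell by 0.21 ± 0.06.

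Among 19 genes of mitochondrial transcription and RNA handling, 5 rose and 8 fell at 10 µg 24 h (26.3% and 42.1%, beside 35.4% and 34.9% of all genes). At 1 µg 24 h 4 rose and 7 fell (21.1% and 36.8%, beside 30.8% and 31.0%). Fastkd5, which acts in RNA processing, changed by -1.21 ± 0.11 and -0.72 ± 0.10, and Pnpt1, an exoribonuclease, by -0.68 ± 0.06 and -0.52 ± 0.06. Of 10 tested regulators of mitochondrial biogenesis 0 rose and 6 fell at each dose (0% and 60%). Of all genes 35.4% rose and 34.9% fell at 10 µg 24 h, and 30.8% rose and 31.0% fell at 1 µg 24 h. Pprc1, a coactivator related to PGC-1, stood at 94.9 ± 2.34 CPM at 10 µg 24 h and 114 ± 4.50 CPM at 1 µg 24 h, against 169 ± 5.58 CPM in untreated cells, with changes of -0.83 ± 0.05 and -0.57 ± 0.04. Gabpa, the DNA-binding subunit of GABP, changed by -0.26 ± 0.06 and -0.14 ± 0.06, and Yy1 by -0.31 ± 0.05 and -0.19 ± 0.05. Over the 10 regulators the changes ran from -0.83 to 0.08 at 10 µg 24 h and from -1.03 to 0.05 at 1 µg 24 h. At 1 µg 24 h a regulator not named here thus fell further than Pprc1.

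Messenger RNAs of the mitochondrial genome, which this ribosome translates, were mostly not called. Of 13, 0 rose and 4 fell at 10 µg 24 h (0% and 30.8%, beside 35.4% and 34.9% of all genes). At 1 µg 24 h 1 rose and 3 fell (7.69% and 23.1%, beside 30.8% and 31.0%). The medians were -0.10 and -0.04. The largest fall was that of mt-Nd1, a complex I subunit, by 0.50 ± 0.05 and 0.30 ± 0.05, and their summed level was 59500 ± 1280 CPM at 10 µg 24 h and 61000 ± 971 CPM at 1 µg 24 h, against 61200 ± 1840 CPM in untreated cells. Of 78 tested nuclear genes of the respiratory chain, 7 rose and 46 fell at 10 µg 24 h (8.97% and 59.0%). At 1 µg 24 h 6 rose and 40 fell (7.69% and 51.3%), and the medians were -0.24 and -0.20. Of 82 tested cytosolic ribosomal protein genes, 7 rose and 25 fell at 10 µg 24 h (8.54% and 30.5%). At 1 µg 24 h 8 rose and 23 fell (9.76% and 28.0%), and the medians were -0.07 and -0.03. Cytosolic ribosomal protein genes have many processed copies in the genome, which can take part of their reads.

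**Figure D4:**
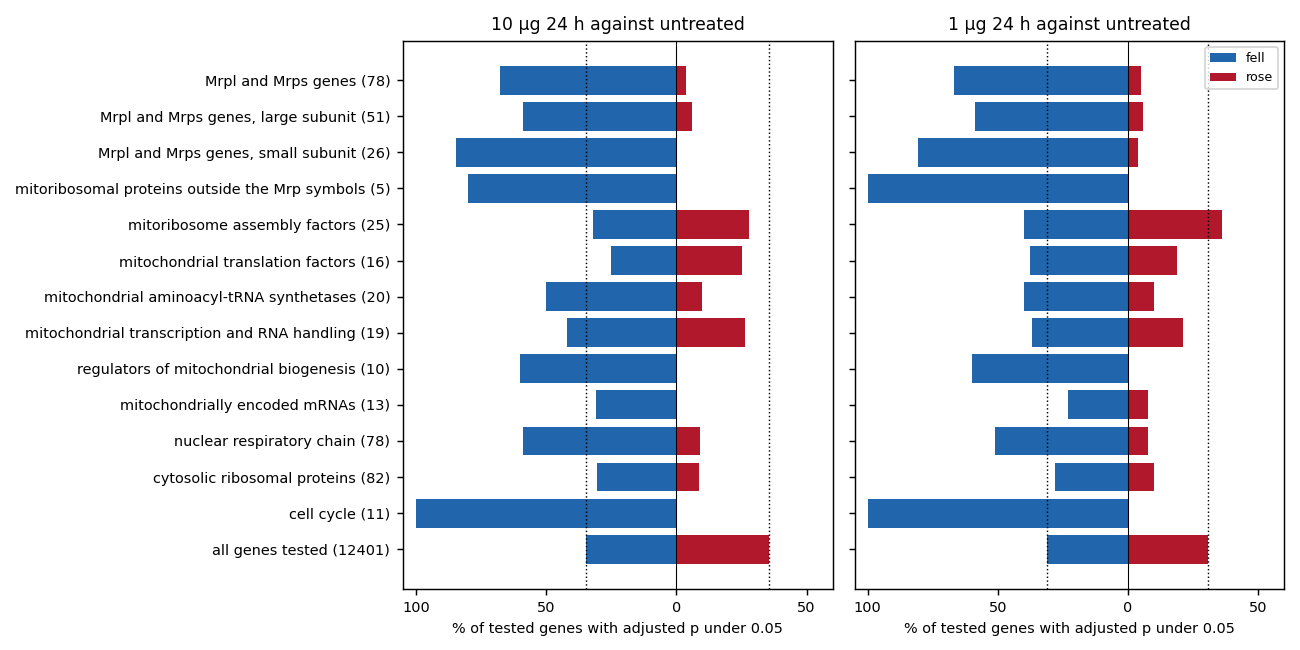
Share of the tested genes of each list that fell (blue, left of 0) or rose (red, right of 0) at 10 µg 24 h (left panel) and 1 µg 24 h (right panel) against untreated cells, with the number tested in brackets and dotted lines at the shares of all genes. The Mrpl and Mrps genes reach 67.9% and 66.7% fallen, the cell cycle list 100% in both panels, and the cytosolic ribosomal proteins 30.5% and 28.0%.

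Several of the genes start back to back with another coding gene. By GENCODE M21, 18 of the 78 had such a partner with its start within 1000 bases on the opposite strand, and in 17 the partner was tested. At 10 µg 24 h 13 of these 17 fell, while 8 of the partners fell and 6 rose, beside 34.9% and 35.4% of all genes. The pairs are given as a description, and no difference from other gene pairs was tested. Both genes fell in 6 pairs, and in 5 the partner rose as the Mrpl or Mrps gene fell. Mrpl49 starts 59 bases from Fau, a gene of a cytosolic ribosomal protein fused to a ubiquitin-like protein, which stood at 43.6 ± 3.53 CPM at 10 µg 24 h, against 36.2 ± 2.86 CPM in untreated cells, and rose by 0.27 ± 0.08. Mrpl51 starts 100 bases from the condensin gene Ncapd2, which fell with it, by 0.94 ± 0.06, to 97.2 ± 10.0 CPM at 10 µg 24 h, against 187 ± 6.44 CPM in untreated cells. Mrpl41 fell by 0.64 ± 0.07 while Pnpla7, a lysophospholipase gene 935 bases away, rose by 0.85 ± 0.06, and Mrps12 fell by 0.53 ± 0.10 beside Sars2, the mitochondrial seryl-tRNA synthetase 172 bases away, which fell by 0.44 ± 0.09.

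**Figure D5:**
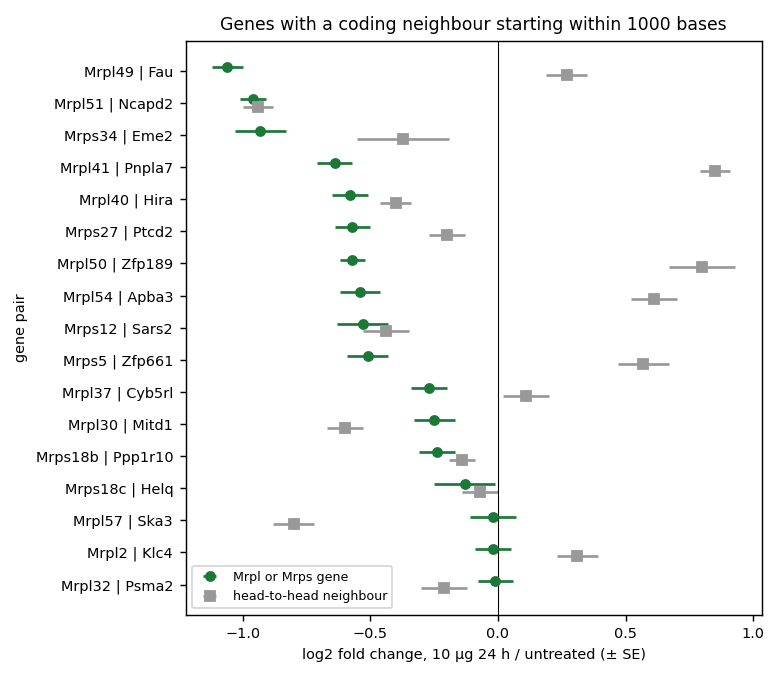
Log2 fold change ± SE at 10 µg 24 h against untreated cells for 17 pairs, with the Mrpl or Mrps gene in green circles and its back-to-back coding neighbour in grey squares. In the pairs of Mrpl49, Mrpl41, Mrpl50, Mrpl54 and Mrps5 the gene fell and its neighbour rose, and in the pair of Mrpl51 and Ncapd2 they lie together at -0.96 and -0.94.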

How the data were processed

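The 15 libraries were made from total RNA with a stranded TruSeq mRNA kit, per the labels' protocols. The authors deposited whole-number counts per gene symbol, with the build GRCm39 named in the submitters' processing notes. For the aligner, the counter, the annotation and the strand setting, nothing is given in the sources used here. The genes and lists were chosen with earlier results of these data known, and no list is independent evidence.

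Counts were fitted in R 4.3.3 with edgeR 4.0.16: filterByExpr left 12401 genes holding 99.97% of counts, libraries were scaled by TMM, all 5 groups were fitted together by robust glmQLFit (residual degrees of freedom 10), and glmQLFTest gave two-sided tests of each contrast with Benjamini-Hochberg adjustment over all genes. The common biological coefficient of variation was 5.68%, which with 3 libraries a group sets the precision. The fit was also run on simulated counts for 10 µg 24 h against untreated cells, with a small, balanced set of genes changed by known folds. In the data 8717 of 12401 genes were called there, so the simulation does not test calls at that scale. SE is the size of the log2 fold change over the square root of F, and CPM uses the TMM-adjusted library size.

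Lengths, neighbours and overlaps come from GENCODE M21, matched by symbol for all 78 genes. Lengths are means over the principal coding transcripts. Promoters are from RefSeq (GRCm38.p6). Classes follow the unified names and not ancestry. Mrpl55, whose class is disputed, was counted as mitochondria-specific, as were the S18 homologs Mrps18a and Mrps18b. Alternatives were DESeq2 1.42.0, limma-voom (limma 3.58.1), DESeq2 size factors, no filter, 2 groups only, a replicate block and each library left out.

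Genes named are, by rule, the called ones with the largest rises and falls (8 each way against untreated cells, 4 each way otherwise), 8 with fixed interest (Mrpl12, Mrpl58, Mrps12, Mrps28, Mrps36, Mrps18a, Mrps18b and Mrps18c), the 5 highest and 5 lowest per length, and called list genes with the smallest p. Mitochondrial ribosomal RNAs were not analysed here. Replicates differed by more than sampling noise in every group, so none was counted as a repeat.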

Additional observations from a re-analysis of the deposited data

Results flagged for a closer look

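For 7 of the 78 genes the difference between 10 µg and 1 µg was itself different at 24 h and at 6 h, by edgeR's test of the interaction. The interaction was negative for 5.13% of the 78, against 11.0% of all genes, and positive for 3.85%, against 7.58%. Both shares were below those of all genes. On the log2 scale it was -0.59 ± 0.19 for Mrps6 (adjusted p = 0.0494), -0.54 ± 0.14 for Mrpl42 (adjusted p = 0.00791), -0.26 ± 0.07 for Mrps25 (adjusted p = 0.00752) and -0.23 ± 0.07 for Mrpl50 (adjusted p = 0.0323). It was 0.29 ± 0.08 for Mrpl24 (adjusted p = 0.0148), 0.43 ± 0.09 for Mrpl19 (adjusted p = 0.00164) and 0.45 ± 0.14 for Mrps18a (adjusted p = 0.0323).

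Mrps25 had 58.0, 62.5 and 61.5 CPM at 10 µg 24 h, against 71.2, 69.8 and 70.8 CPM at 1 µg 24 h, and 77.0, 77.7 and 74.5 CPM at 10 µg 6 h, against 74.9, 74.0 and 74.2 CPM at 1 µg 6 h. Mrpl50 had 36.2, 36.1 and 35.1 CPM at 10 µg 24 h, against 40.3, 41.4 and 42.4 CPM at 1 µg 24 h, with 49.6 to 52.4 CPM at 10 µg 6 h, against 49.5 to 50.6 CPM at 1 µg 6 h. Mrps6 had 162 ± 0.995 CPM at 10 µg 6 h, against 137 ± 5.02 CPM at 1 µg 6 h (SD, n = 3), and its interaction was -0.37 without replicate 1 of the 1 µg 24 h group (adjusted p = 0.000964). The calls of Mrpl42, Mrps25 and Mrpl19 stayed in every alternative run, and those of Mrps6, Mrpl50, Mrpl24 and Mrps18a were lost in at least 1. Nr2c2, on the opposite strand, shares 3533 bases of exon with Mrps25. It stood at 67.4 ± 5.88 CPM at 10 µg 24 h and 78.9 ± 2.63 CPM at 1 µg 24 h, against 65.6 ± 0.889 CPM in untreated cells. As the strand setting of the counting is not given, reads of Mrps25 and Nr2c2 cannot be told apart in any run.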

How the results depend on the processing

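Numbers of the 78 genes called stayed within 1.5 times of the reported ones except as follows. At 10 µg 6 h (2 reported) limma-voom gave 1 and a fit of the 2 groups alone 7, between the doses at 24 h (16 reported) that fit gave 10, and between the doses at 6 h (1 reported) it gave 3. With each library left out in turn the counts were 1 to 1 at 10 µg 6 h, 51 to 55 at 1 µg 24 h, 52 to 54 at 10 µg 24 h, 0 to 1 between the doses at 6 h (0 without 10 µg replicate 3 or 1 µg replicate 2), 11 to 16 between the doses at 24 h and 3 to 10 for the interaction (3 without 10 µg 24 h replicate 3, 4 without 1 µg 24 h replicate 2 or 1 µg 6 h replicate 2). The cause was not tested. Same-numbered libraries of different groups correlated weakly (30 pairs, r from -0.08 to 0.10, beside -0.09 to 0.12 for 60 pairs of other numbers). Yet 10 of 15 libraries correlated best with their own number, and whether a number marks a shared culture or day was not tested. With a replicate block the counts were 55 at each 24 h dose, 2 at 10 µg 6 h and 14, 1 and 7 for the doses at 24 h, the doses at 6 h and the interaction. No called gene changed sign. Uncalled values near 0 did when single libraries were left out. At 1 µg 6 h they ran from -0.21 to 0.33 for Mrps36 (0.01 by limma-voom), -0.03 to 0.01 for Mrpl24, 0.00 to 0.04 for Mrpl33, -0.11 to 0.09 for Mrpl48, 0.00 to 0.12 for Mrps18b and -0.02 to 0.07 for Mrps6. At 10 µg 6 h they ran from -0.34 to 0.19 for Mrps36 and -0.04 to 0.09 for Mrps28, at 1 µg 24 h from -0.07 to 0.04 for Mrpl48, and at 10 µg 24 h from -0.18 to 0.02 for Mrps18a. The calls held in every alternative for 48 of 56 genes at 10 µg 24 h and 45 of 56 at 1 µg 24 h. No scaling moved the median of all genes by more than 0.1, but these scalings take most genes as unchanged, so this median cannot test them. TMM factors were 1.022 to 1.055 in the 24 h libraries and 0.965 to 0.98 in the others. Without scaling, the 78 genes held 0.257% to 0.267% of counts at 10 µg 24 h, against 0.304% to 0.315% in untreated cells. At 1 µg 24 h their unscaled share was 0.269% to 0.273%. Depth limits Mrps36 most, with as few as 52 counts in a library.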
